A study of Mus musculus with 9 samples.

Results

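The TRIM (tripartite motif) genes of the mouse were scored for BAP1 binding in Ba/F3 cells, a B cell precursor line that grows in IL-3. The members are all protein-coding genes of GENCODE release M1 whose symbol is Trim followed by a number, and there were 68 of them among 22367 protein-coding genes. A member counted as bound when the middle of a BAP1 peak lay within 1 kb of any of its transcription start sites (TSSs). By this rule 29 of the 68 members (42.6%, 95% Wilson interval 31.6 to 54.5) had a gene-proximal peak, against 39.6% of all protein-coding genes. The share of the whole family was therefore close to that of any gene, but the bound members were spread unevenly over its groups. The 11 members of the antiviral cluster on chromosome 7 had no gene-proximal peak (0 of 11). Such a peak was found at 8 of the 16 members of other clusters. It was also found at 21 of the 41 dispersed members, which lie more than 200 kb from any other member. The 11 share 1 locus and promoters poor in CpG, with an observed over expected ratio under 0.5 at the 5′-most TSS. Of all protein-coding genes with such promoters, 8.98% were bound.

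The peaks come from chromatin immunoprecipitation followed by sequencing (ChIP-Seq), in which DNA fragments bound by a protein are recovered with an antibody and read. Endogenous BAP1 was recovered from wild type Ba/F3 cells with an anti-BAP1 antibody, and tagged BAP1 from Ba/F3 cells that stably express triple-FLAG-tagged murine BAP1, kept under puromycin, with an anti-FLAG antibody. Both immunoprecipitations are behind 1 pooled list of 13164 peaks on mouse build mm9, all 200 bp wide and without a height or score. Of the 9 samples of the series, the 3 H2AK119ub and 4 input DNA samples, which include clones with a CRISPR-Cas9 knockout of Bap1, were not analysed here on their own. The list does not say in which immunoprecipitation a peak was found, each was sequenced once, and the read depth is unknown, so no value has a replicate error and a gene without a peak is not shown to be free of BAP1. The Wilson intervals cover counting error only.

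Most TRIM proteins have a RING finger, B-box and coiled-coil region, and most act as E3 ubiquitin ligases. The family includes cofactors of transcription, regulators of innate immune signalling, muscle and neuronal proteins, and factors that restrict viruses. Many antiviral TRIM genes lie side by side as recent duplicates and are induced by interferon, whose transcription factors bind the interferon-stimulated response element (ISRE). BAP1 is a deubiquitinase that removes ubiquitin from monoubiquitinated histone H2A.

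Members were called clustered when the gap to the next member on the chromosome was at most 200 kb, which gave 7 clusters. The antiviral cluster spans 289 kb at chr7:111367307-111656363 and holds Trim6, Trim34a, Trim5, Trim12a, Trim34b, Trim12c, Trim30b, Trim30c, Trim30a and Trim30d. Trim30b has 2 identifiers in this annotation (ENSMUSG00000052749.7 and ENSMUSG00000091576.1), so the 10 symbols are 11 members. With no member bound, the upper limit of the 95% Wilson interval was 25.9%. The other clusters hold 16 members, of which 8 were bound (50.0%, 28 to 72), and the dispersed members were bound in 21 of 41 cases (51.2%, 36.5 to 65.7). Members of 1 cluster share their surroundings and much of their sequence, so they are not independent draws and no test was made of this difference.

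**Figure D1:**
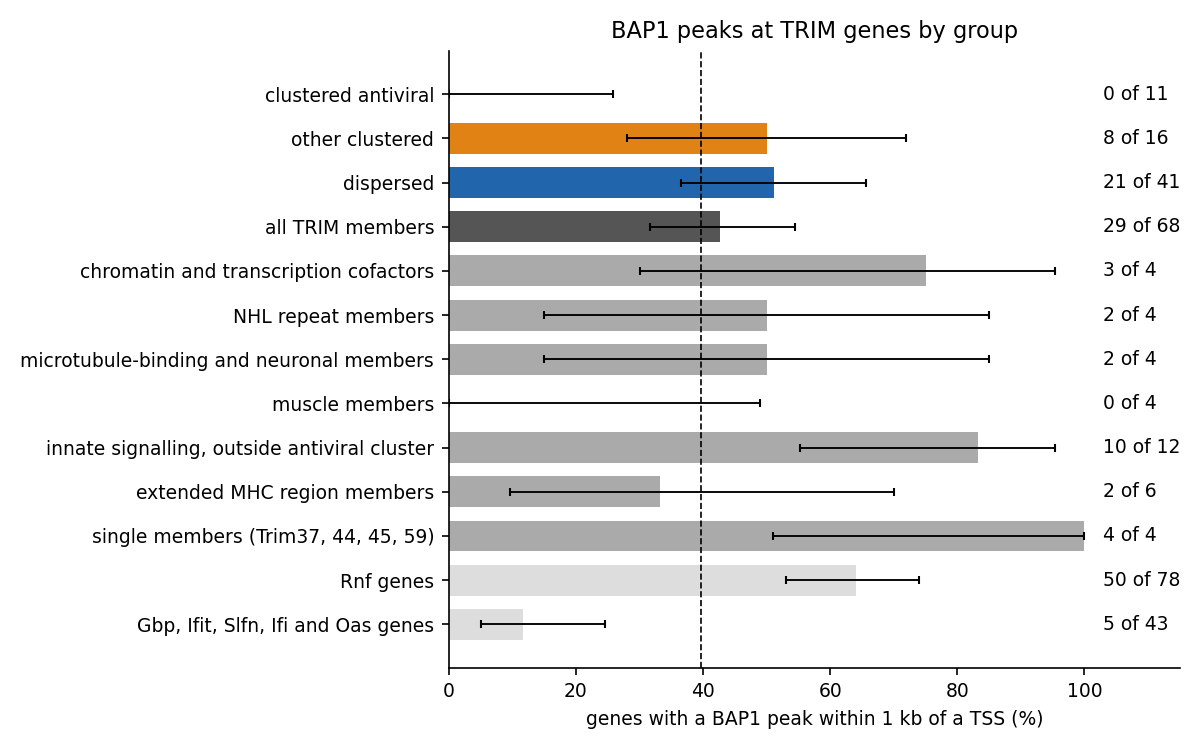
Bars give the percentage of genes with a BAP1 peak within 1 kb of a TSS for each group of TRIM genes and for 2 other gene groups, whiskers are 95% Wilson intervals and the dashed line marks all protein-coding genes at 39.6%. The antiviral cluster (0 of 11) and the muscle members (0 of 4) have no bar, and the innate signalling members outside the antiviral cluster reach 10 of 12. The bar of single members (4 of 4) joins Trim37, Trim44, Trim45 and Trim59, which were listed singly and not by a shared role.

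Of the 11 antiviral promoters, 7 held a match to the core of the ISRE, and none had a peak. This core, taken here as GAAA, any 2 bases and GAAA on either strand, was searched from 250 bp before to 50 bp after the 5′-most TSS of each gene. It was present in 3.78% of all protein-coding promoters, and Trim6, both Trim30b identifiers and Trim30c were the antiviral members without it. Outside the antiviral cluster it was found at Trim21, Trim26 and Trim14. These 10 promoters are shown because they include both kinds of member, those with a peak (Trim21 and Trim26) and those without. They were chosen after their values were seen. The genomic sequence (mm9) is given in the direction of the gene with 10 bases on either side, and capitals mark the ISRE core.
Trim5 promoter, chr7:111436650-111436679, minus strand: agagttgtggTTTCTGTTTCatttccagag
Trim12a promoter, chr7:111463980-111464009, minus strand: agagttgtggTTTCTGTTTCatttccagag
Trim12c promoter, chr7:111501873-111501902, minus strand: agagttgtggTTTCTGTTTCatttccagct
Trim30a promoter, chr7:111613724-111613753, minus strand: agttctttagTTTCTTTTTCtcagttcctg
Trim30d promoter, chr7:111656385-111656414, minus strand: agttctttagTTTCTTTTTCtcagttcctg
Trim34a promoter, chr7:111392971-111393000, plus strand: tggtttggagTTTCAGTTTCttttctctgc
Trim34b promoter, chr7:111448701-111448730, plus strand: tggtttggagTTTCAGTTTCtcccccacac
Trim14 promoter, chr4:46548996-46549025, minus strand: ccgagcaaggTTTCGATTTCtgcaccaacc
Trim21 promoter, chr7:109713958-109713993, minus strand: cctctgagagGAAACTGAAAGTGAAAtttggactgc
Trim26 promoter, chr17:36973921-36973956, plus strand: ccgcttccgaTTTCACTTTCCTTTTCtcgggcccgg
Paralogs of the antiviral cluster shared the same core and the bases before it, with one form in Trim5, Trim12a and Trim12c, another in Trim30a and Trim30d, and another in Trim34a and Trim34b. Trim21 and Trim26 each held 2 overlapping matches, whereas the other 8 promoters held 1 match. Among all 846 protein-coding promoters with this core, 250 genes (29.6%) had a gene-proximal peak. The share was 7.37% of the 529 whose promoter was poor in CpG and 66.6% of the 317 whose promoter was rich in CpG, with the border at an observed over expected ratio of 0.5. A match is only a run of letters, and whether interferon factors occupied any of these sites was not measured.

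The whole antiviral locus was poor in gene-proximal peaks, not just its TRIM genes. Within 500 kb on either side lie 55 other protein-coding genes, of which 42 are olfactory receptor genes, and 0 of the 55 had a gene-proximal peak. For each member, the share of protein-coding genes within 200 kb, TRIM genes left out, that had a peak was 0% throughout the antiviral cluster. It had a median of 33.3% (0 to 82.4) around the other clustered members and of 50.0% (0 to 87.5) around the dispersed members. A share of 0% was not particular to the antiviral cluster. It was also found around bound members, namely Trim68 (0 of 23 genes), Trim24 and Trim35 (0 of 4 each), Trim44 (0 of 3) and Trim32 (0 of 1). The unbound members Trim29, Trim42 and Trim52 had 0% as well.

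The antiviral cluster nevertheless contained 3 peaks, all in introns and all outside the 1 kb window. One lay 53.9 kb from the start of the cluster, in an intron of Trim5 that also lies within an intron of Trim34a on the other strand, 6992 bp from the nearest TSS of Trim5. The other two lay in introns of Trim30a, a regulator of Toll-like receptor signalling. Their distances to an internal TSS of Trim30a were 1092 and 1649 bp, and those to its 5′-most TSS were 49.4 and 46.6 kb. The density was 10.4 peaks per Mb in the cluster and 6.63 on the whole of chromosome 7. The 3 sequences are shown because they are the only peaks in the antiviral cluster, chosen after their positions were seen, with a GGGCGG match in capitals.
Trim5 intron peak, chr7:111421154-111421353, plus strand: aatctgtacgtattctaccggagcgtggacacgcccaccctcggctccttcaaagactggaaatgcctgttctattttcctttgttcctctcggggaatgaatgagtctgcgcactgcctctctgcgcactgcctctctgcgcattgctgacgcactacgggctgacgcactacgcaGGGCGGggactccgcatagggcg
First Trim30a intron peak, chr7:111564250-111564449, plus strand: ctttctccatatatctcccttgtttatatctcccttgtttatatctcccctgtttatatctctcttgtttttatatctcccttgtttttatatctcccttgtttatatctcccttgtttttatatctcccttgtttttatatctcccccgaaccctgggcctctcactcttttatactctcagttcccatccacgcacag
Second Trim30a intron peak, chr7:111566991-111567190, plus strand: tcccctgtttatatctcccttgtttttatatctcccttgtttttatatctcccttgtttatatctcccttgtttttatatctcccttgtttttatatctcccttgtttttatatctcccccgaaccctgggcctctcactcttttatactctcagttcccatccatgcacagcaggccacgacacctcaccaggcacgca
The Trim30a intron peaks are both built from copies of a short unit, with the run tatatctccc occurring 8 times in the first and 7 times in the second, and they share a stretch of 92 identical bases. None of the 3 lies in sequence that is unique in the genome. The share of 50-base words that occur once in mm9 was 0% for the Trim5 intron peak, 25.8% for the first and 0% for the second Trim30a intron peak, against 100% for 32 of the 35 gene-proximal peaks of the members and for 89.0% of the whole list. At least one 50-base word of the Trim5 intron peak was also present in 111 other peaks of the list. For the Trim30a intron peaks this number was 163 and 169. How reads from such repeated sequence were placed is not given in the sources used here, and its part in these peaks was not tested.

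**Figure D2:**
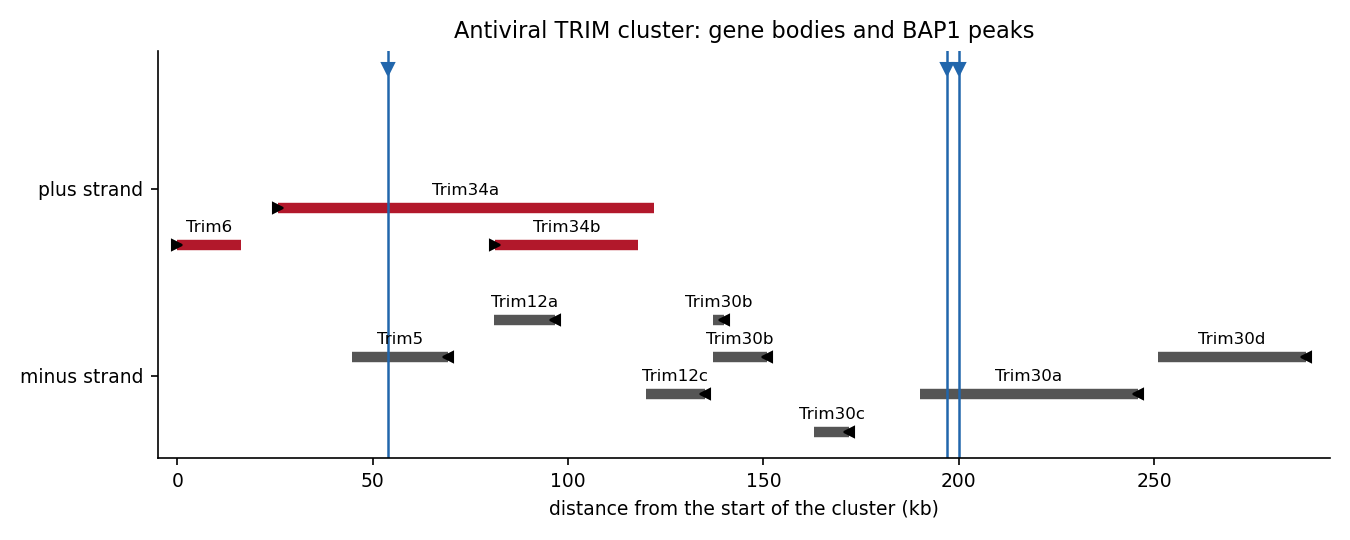
Map of the antiviral cluster, with the distance from its start in kb on the horizontal axis, gene bodies on the plus strand in red and on the minus strand in grey, black arrowheads at the 5′ end of each gene and blue lines at the BAP1 peaks. The 3 peaks, at 53.9, 197 and 200 kb, lie within Trim5 (and Trim34a) and Trim30a, away from the 5′ ends of the genes.

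Repeated sequence was also present at the antiviral promoters themselves. In the 1 kb around the 5′-most TSS, the share of unique 50-base words had a median of 93.7% in the antiviral cluster and ranged from 48.8% at Trim5 and 54.2% at Trim12a to 100% at Trim6. Every word was unique at 1 of the 11 antiviral members, at 12 of the 16 other clustered members and at 36 of the 41 dispersed members. Over all protein-coding genes, a gene-proximal peak was found at 8.06% of the 1240 genes with under 50% unique words and at 44.1% of the 19157 genes with 90% or more. Trim6, Trim30b (ENSMUSG00000052749.7), Trim30c, Trim34a and Trim34b lay at or above 96.2%, and none of the 11 had a gene-proximal peak. The part of repeated sequence in the absence of peaks was not tested.

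**Figure D3:**
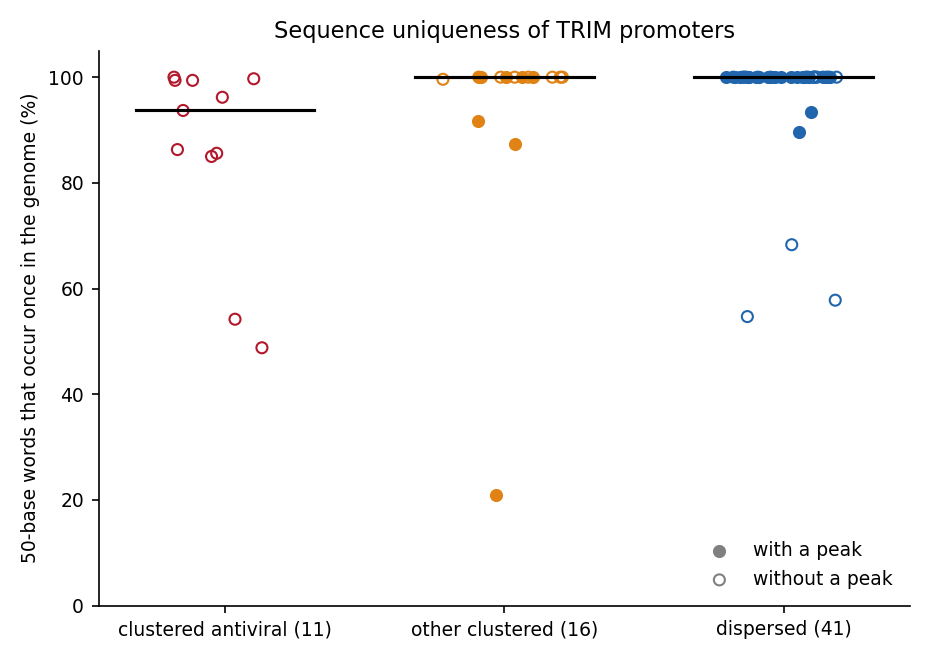
Each circle is 1 TRIM gene, with the percentage of 50-base words in the 1 kb around its 5′-most TSS that occur once in the genome on the vertical axis, filled where the gene has a gene-proximal peak, and black lines give group medians. Most members lie at 100%, the antiviral members have a median of 93.7%, and the lowest circle is Trim7 at 21%.

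Bound members had the more CpG-rich promoters. In a window reaching 500 bp to each side of the TSS, the observed over expected CpG ratio at the 5′-most TSS, which does not depend on where a peak lies, had a median of 0.722 at the 29 bound members and of 0.256 at the 39 unbound members. The medians of all bound and unbound protein-coding genes were 0.761 and 0.294. By group, the median was 0.137 (0.0209 to 0.488) in the antiviral cluster, 0.381 in the other clusters and 0.531 among the dispersed members. Taken at the TSS nearest a peak instead, the medians were 0.773 for the bound and 0.607 for the dispersed members, and the ratios of single bound genes given below are of this kind. The ratio at the 5′-most TSS was under 0.5 at all 11 antiviral members. Of the dispersed members with a ratio under 0.5, 5 of 19 were bound, and 8.98% of all protein-coding genes in this range were bound. Among these 5, Trim13, Trim39 and Trim44 had ratios of 0.768, 0.924 and 0.953 at the TSS nearest a peak. Only Trim16 and Trim56 were also poor in CpG there, at 0.336 and 0.341. At a ratio of 0.5 or more, 16 of 22 dispersed members (72.7%) and 7 of 7 other clustered members were bound, against 66.3% of all protein-coding genes. Thus 0 of 11 antiviral members stands beside 8.98%, not 39.6%, when only genes with a ratio under 0.5 at the 5′-most TSS are considered. This is no exact match in CpG content, since the range reaches well above the antiviral median of 0.137. It also includes genes bound at another TSS that is richer in CpG, as Trim13, Trim39 and Trim44 were. The difference in CpG content and the place in the cluster cannot be told apart in these data.

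**Figure D4:**
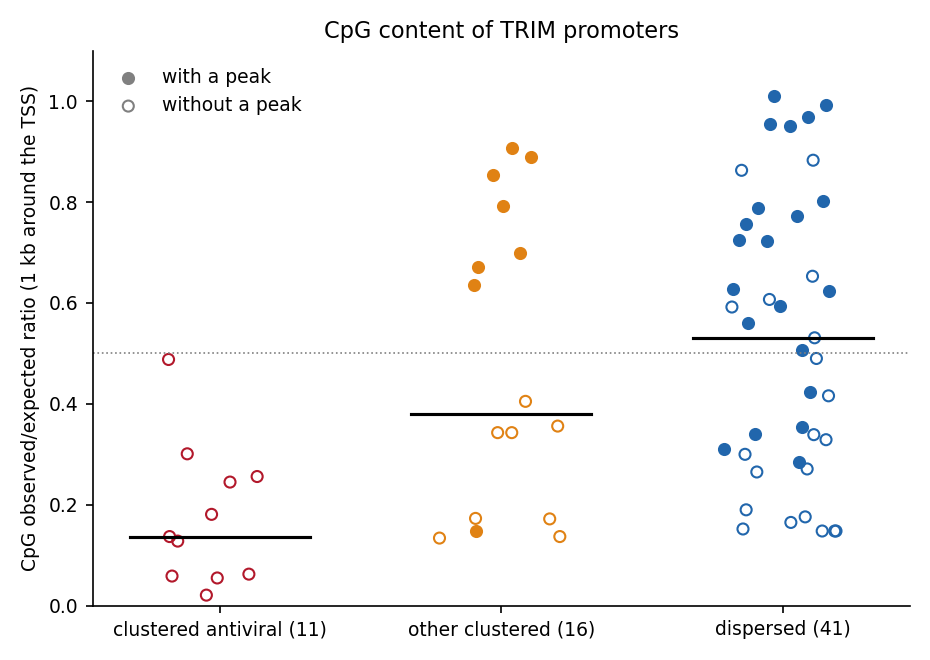
Each circle is 1 TRIM gene, with the observed over expected CpG ratio of the 1 kb around its 5′-most TSS on the vertical axis, filled where the gene has a gene-proximal peak, with group medians as black lines and the value 0.5 dotted. All antiviral members lie under 0.5, and the bound member with the lowest ratio is Trim21 at 0.149.

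Trim21, which encodes a cytosolic antibody receptor, had the lowest CpG ratio of the bound members. It lies with Trim68 in a cluster of its own on chromosome 7, and both were bound, with peaks at -81 and -35 bp from the TSS. This ratio, 0.149, lay within the range of the antiviral members, and 2 of the 20 protein-coding genes within 200 kb of it that are not TRIM genes were bound. Its peak covered the ISRE core, and so did the peak of Trim26, an E3 ligase gene of the extended major histocompatibility complex (MHC) region, which lay at -141 bp. The core was found in 2 of the 35 member peaks and in 1.85% of all peaks. Both peaks are shown because they are the member peaks that hold this run of letters, with the peak of Trim24 as a CpG-rich promoter of a chromatin cofactor, and capitals mark all matches to the motifs searched.
Trim21 peak, chr7:109713964-109714163, plus strand: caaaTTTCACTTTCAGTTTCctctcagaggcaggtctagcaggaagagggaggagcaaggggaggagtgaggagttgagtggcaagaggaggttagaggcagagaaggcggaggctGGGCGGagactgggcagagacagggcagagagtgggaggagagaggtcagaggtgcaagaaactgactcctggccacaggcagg
Trim26 peak, chr17:36973838-36974037, plus strand: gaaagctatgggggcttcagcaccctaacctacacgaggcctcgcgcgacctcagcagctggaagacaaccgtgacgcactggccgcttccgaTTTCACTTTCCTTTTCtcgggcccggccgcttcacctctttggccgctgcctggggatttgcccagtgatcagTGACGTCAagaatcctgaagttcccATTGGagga
Trim24 peak, chr6:37820613-37820812, plus strand: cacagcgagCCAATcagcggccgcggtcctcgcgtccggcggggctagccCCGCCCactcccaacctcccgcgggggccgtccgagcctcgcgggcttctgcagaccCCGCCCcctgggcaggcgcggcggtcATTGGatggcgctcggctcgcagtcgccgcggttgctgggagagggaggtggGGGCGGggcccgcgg
In the Trim21 peak the capitals are the ISRE core and a GGGCGG box, in that of Trim26 the ISRE core, TGACGTCA and CCAAT, and in that of Trim24 CCAAT and GGGCGG boxes. Trim14, an adaptor of antiviral signalling whose promoter also held the ISRE core, had a ratio of 0.607 and its nearest peak 27889 bp away.

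Among the members that act in innate immune signalling but lie outside the antiviral cluster, 10 of 12 were bound (83.3%, 55.2 to 95.3), beside 39.6% of all protein-coding genes and 66.3% of those with a CpG ratio of 0.5 or more. This list was chosen with earlier results of these data known, and nothing particular to it was tested. Trim25, which ubiquitinates the RNA sensor RIG-I, had its peak at 13 bp from the TSS, and Trim56 had its peak at -284 bp, with a low CpG ratio of 0.341. Trim65, a ligase for the RNA sensor MDA5, had its peak at 462 bp in a coding exon, the most distant when the nearest peak of each bound member is taken. Trim21 and Trim26 were bound as described above, and the peaks of Trim8, Trim11, Trim13, Trim23 and Trim27 lay at 74, 91, 1, -14 and -72 bp. The unbound pair was Trim14 and Trim38, and the nearest peak of Trim38, a regulator of Toll-like receptor signalling, lay 18854 bp away although 11 peaks lay within 50 kb of its 5′-most TSS.

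The chromatin and transcription cofactors were bound in 3 of 4 cases, beside 39.6% of all protein-coding genes and 66.3% of those with a CpG ratio of 0.5 or more. Neither this list nor those below were tested. Trim28, the corepressor that KRAB zinc finger proteins recruit to retroelements, had its peak at 451 bp, and Trim33 had its peak at 382 bp, both in UTR exons downstream of the TSS. The peak of Trim24 lay at -98 bp. The CpG ratios of these promoters were 0.954, 0.992 and 0.951, among the 6 highest of the family. Trim66, the remaining cofactor of this group, had a ratio of 0.300, and its nearest peak was 10859 bp away.

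The members with NHL repeats were bound in 2 of 4 cases, beside 39.6% of all protein-coding genes. Trim3 and Trim32 had peaks at -62 and -27 bp. Trim71, which acts in early development, had no peak within 1 kb although its CpG ratio was 0.863, with the nearest peak at 9471 bp, and Trim2 had its nearest peak at 4959 bp. Of the microtubule-binding and neuronal members, Trim36 and Trim46 were bound, with their nearest peaks at -61 and 15 bp. Trim9 and Trim67, both neuronal, had no peak within 1 kb and CpG ratios of 0.592 and 0.883, and their nearest peaks lay 105429 and 69927 bp away.

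The muscle members Trim54, Trim55, Trim63 and Trim72 were all unbound (0 of 4, upper limit 49%). Of all protein-coding genes 39.6% were bound, and of those with a CpG ratio under 0.5 8.98%. Trim63 encodes the muscle ligase MuRF1 and Trim72 a membrane repair protein. The CpG ratios of the muscle members lay between 0.148 and 0.271, and their nearest peaks were 37391, 15750, 7422 and 36482 bp away, in the order of their symbols. In the extended MHC region 2 of 6 members were bound, beside the same 39.6% of all protein-coding genes. These were Trim26 and Trim39, with peaks at -141 and -86 bp, while Trim10, Trim15, Trim31 and Trim40 had CpG ratios from 0.134 to 0.405 and nearest peaks 29753 to 53624 bp away. Trim37, Trim44, Trim45 and Trim59 were listed singly and not by a shared role. All 4 were bound, beside 39.6% of all protein-coding genes, and this count is not the share of a group. Trim59 had its peak at -97 bp and the highest CpG ratio of the family (1.01), and Trim45 had its peak at 47 bp in a coding exon.

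In the remaining clusters, which hold 2 to 5 members each, binding went either way. Both members were bound in the pairs Trim41 and Trim7, Trim17 and Trim11, and Trim21 and Trim68. Of the pair Trim47 and Trim65 only Trim65 was bound, and in the MHC region cluster of Trim26, Trim15, Trim10, Trim40 and Trim31 only Trim26. Trim75, Trim60 and Trim61, side by side on chromosome 8, had no gene-proximal peak and CpG ratios of 0.172 to 0.343. Trim60 and Trim61 have the same 5′-most TSS, so the same promoter was counted for both. Among the dispersed members outside the lists above, Trim16 and Trim62 were bound at -33 and -64 bp, and Trim35 at -55 bp. Trim29, Trim42, Trim43a, Trim43b, Trim43c, Trim50, Trim52, Trim58 and Trim69 were unbound. Trim52 had the highest CpG ratio of these (0.653), and Trim58, which acts in red cell maturation, had 0.490.

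The peaks of the bound members lay close to the TSS. Relative to the nearest TSS of the gene, the middle of the nearest peak was at a median of -35.0 bp (-284 to 462), where negative values are upstream, and the median of all bound protein-coding genes was -32.0 bp. The peak covered a TSS at 22 of the 29 bound members, and 26 of the 29 had a peak within 1 kb of the 5′-most TSS. At 18 members (62.1%) the nearest peak was upstream and at 11 downstream, whereas it was upstream at 75% of all bound protein-coding genes. Of the 35 gene-proximal peaks, 15 lay in UTR exons, 13 upstream of the gene, 4 in introns, 2 in coding exons and 1 in a noncoding exon. Among the bound members, those whose nearest peak was most distant were Trim65 at 462 bp and Trim28 at 451 bp, and the second peak of Trim7 lay at 517 bp. A window of 500 bp left the same 29 members bound. Just outside the 1 kb border lay Trim30a at 1092 bp, followed by Trim47 at 3452 bp and Trim2 at 4959 bp.

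**Figure D5:**
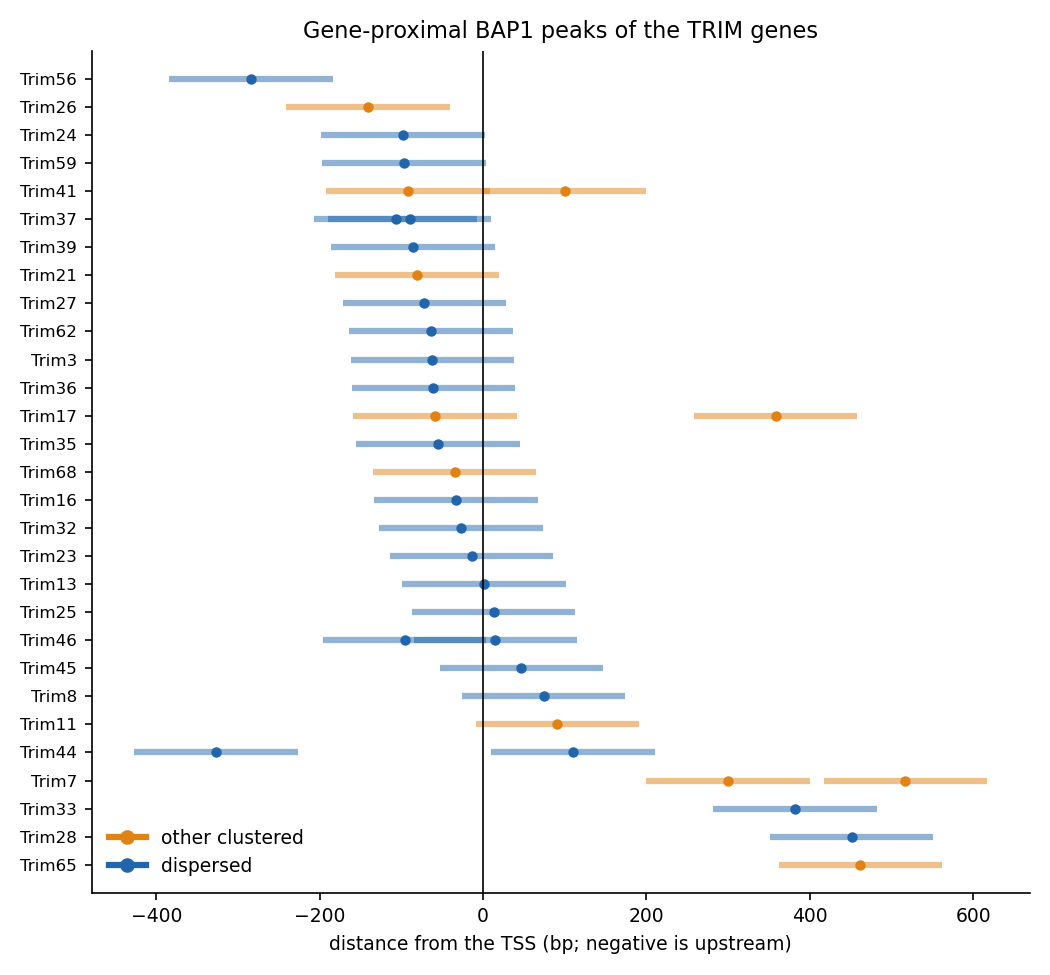
Dots mark the middle and bars the 200 bp width of the 35 gene-proximal peaks of the 29 bound TRIM genes, placed by the distance to the nearest TSS of the same gene in bp, with dispersed members in blue and other clustered members in orange. Most peaks cover the TSS, and Trim7, Trim33, Trim28 and Trim65 lie furthest downstream.

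At 6 members 2 gene-proximal peaks were listed (Trim7, Trim17, Trim37, Trim41, Trim44 and Trim46), which is 20.7% of the bound members against 25.5% of all bound protein-coding genes. Trim44, which encodes a TRIM protein without a RING finger, had peaks at -327 and 110 bp. Those of Trim41 lay at -92 and 100 bp, on both sides of its start. Trim37 encodes a centrosomal and peroxisomal ligase, and its peaks lay at -90 and -107 bp of different TSSs, the first of them only 29 bp from the TSS of the divergent gene Gm11491. Of the pair at Trim46, the peak at 15 bp was nearest to Trim46 and that at -96 bp lay 33 bp from the TSS of the divergent gene Krtcap2. Trim17 starts at the same base as the histone gene Hist3h2a, so its peaks at -59 and 358 bp belong equally to both. Both peaks of Trim7, at 300 and 517 bp, were nearer to Gm12184 on the opposite strand and lay in sequence with 15.2% and 10.6% unique words. The peak of Trim35, at -55 bp, was 36 bp from the TSS of the divergent gene 1700001G11Rik. With each peak given only to the gene with the nearest TSS, 27 of the 29 members were left, without Trim7 and Trim35.

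The nearest peak of the unbound members was a median of 32839 bp away, against 82970 bp for all unbound protein-coding genes. In the antiviral cluster this distance ranged from 1092 to 64849 bp. It was 47233 bp for Trim6, 28176 for Trim34a, 6992 for Trim5, 28294 for Trim12a, 27490 for Trim34b and 62474 for Trim12c. It was 45952 and 57190 bp for the Trim30b identifiers, 25250 for Trim30c and 64849 for Trim30d. Except for Trim30a and Trim5, the nearest peak was thus 25250 bp away or more. Each of these distances runs to an intron peak inside the cluster, in repeated sequence with at most 25.8% unique words. The only other peak within 500 kb of the cluster lay at -358 kb from its start. Among the dispersed members the nearest were those of Trim2, Trim63, Trim71, Trim66 and Trim69, from 4959 to 13029 bp. The farthest were those of Trim29 at 639608 bp, Trim42 at 258751, Trim52 at 208821, Trim58 at 206661 and Trim43b at 118375.

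The sequence content of the member peaks was near that of the list as a whole. On both strands, the SP box GGGCGG was found in 24 of 35 member peaks (68.6%, against 59.5% of all peaks) and CCAAT in 12 (34.3% against 28.5%). The ETS motif CCGGAAG was found in 3 (8.57% against 16.8%), namely peaks of Trim39, Trim41 and Trim44. With 100 bp added on either side of each peak this order turned for ETS, to 25.7% against 21.8%. NRF1 (GCATGCGC) was found in peaks of Trim23 and Trim32, the E-box CACGTG in those of Trim25 and Trim37, and the CRE TGACGTCA in that of Trim26. YY1 (AAGATGGC) and ZNF143 (ACTACAAT) had no match in the 35 peaks and matched 4.13% and 0.555% of all peaks. None of these motifs contains another, and 5 member peaks held no match.

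Compared with like gene families, the TRIM genes lay in between, at 42.6%, near the 39.6% of all protein-coding genes. The Rnf genes, which also encode RING finger proteins, had a gene-proximal peak in 50 of 78 cases (64.1%, 53.0 to 73.9). The interferon-inducible Gbp, Ifit, Slfn, Ifi and Oas genes, which mostly lie in clusters, had one in 5 of 43 cases (11.6%, 5.07 to 24.5), with 0 of 11 among the Gbp genes. The bound ones were Ifit2, Slfn9, Ifi35, Oas1b and Oas1c. The CpG content of the promoters was not compared between the families, and no test was made between them.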

How the data were processed

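Both immunoprecipitations of BAP1 from Ba/F3 cells were used. Per the labels and the study's methods, the authors aligned reads to mouse build mm9 with Bowtie 1.0.0 and called peaks over input DNA with MACS, given as version 1.4.2 in the submitters' processing notes. They deposited 1 pooled list of peak starts and ends in bp, with no score. The threshold and the rule that joined both samples are not given in the sources used here. A looser or stricter threshold would move every count.

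Peaks were compared with all TSSs of GENCODE M1 on the NCBIM37 genome (mm9), the mitochondrial genome left out. The middle is the start plus 100 bp. An antiviral cluster was one that holds a member numbered 5, 6, 12, 30 or 34. The CpG ratio was taken at the TSS nearest a peak, or at the 5′-most TSS of unbound genes and where stated. Words of 50 bases were matched exactly on both strands of the whole genome. The 9 motifs were searched as letters. Python 3.11.15, numpy 2.4.6, pandas 2.3.3, scipy 1.17.1 and pysam 0.24.0 were used, and the functions were tested on simulated data. Values in full were given for the antiviral and role list members, members with 2 or more peaks or a peak nearer another gene, and the 5 nearest and 5 farthest unbound dispersed members. The members, lists and comparisons were chosen with earlier results of these data known, and word uniqueness was added after seeing the data. No test was run, since 1 list has no replicates. Alternatives were other windows, peak edges, TSS choices, merging, cluster gaps and family membership.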

Additional observations from a re-analysis of the deposited data

How the results depend on the processing

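The count of bound members was 29 and ranged from 26, with the TSS of the longest transcript only (without Trim7, Trim13 and Trim36), to 32 with a window of 5 kb (Trim2, Trim30a and Trim47 added). The antiviral cluster had 0 bound members in most settings and 1, Trim30a, with a window of 2 kb, a window of 5 kb or the peak's nearest edge used for its position, through 1 repeat-built intron peak with the edge and through both such peaks with the wider windows. The bound share of the dispersed members was 51.2% and ranged from 46.3% to 55.6%. With peaks extended by 100 bp on either side, matches rose from 3 to 9 of 35 for the ETS motif and from 24 to 30 for the SP box, or 25.7% and 85.7% against 21.8% and 69.2% of all peaks. For ETS this turned the order, which was 8.57% against 16.8% in the peaks as listed. With a cluster gap of 50 kb or 1 Mb, the antiviral cluster held the same 11 members. At 1 Mb the dispersed members Trim39, Trim43a, Trim43b, Trim43c and Trim58 counted as clustered. Counting 1 member per symbol or leaving out the antiviral cluster, both chosen after seeing the data, left 29. Neither could change this count, because no bound member was removed. Without the antiviral cluster the share was 29 of 57 (50.9%), beside 39.6% of all protein-coding genes. No paired analysis was possible because both immunoprecipitations are joined in 1 list and no replicate can be left out of it. The unknown peak threshold and depth limit what an absent peak can show.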

Other observations

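Some TRIM proteins are encoded under other symbols, such as Mid1, Mid2 and Pml. Of these 3 genes Pml, which encodes the organizer of nuclear bodies and is induced by interferon, had a gene-proximal peak, and the microtubule-associated Mid1 and Mid2 had none. This is 1 of 3 genes, beside 39.6% of all protein-coding genes. Added to the 29 bound among 68 members, Pml brought the count to 30.

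The bound members also had more annotated start sites, with a median of 3 TSS positions per gene against 2 for the unbound members, and a gene with more TSSs has more windows in which a peak can count. Bound and unbound protein-coding genes had medians of 3 and 1.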
